A study of Mus musculus with 16 samples.

Results

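The genes described here were those whose level stepped down with the number of intact Nat1 copies in mouse embryonic stem cells, in ribosome footprints and in total RNA alike. A gene was taken when every WT value lay above every Nat1+/- value and every Nat1+/- value above every Nat1-/- value. The group mean also had to be at least 2-fold lower at each step, with a WT mean of at least 100 normalised reads, and both conditions had to hold in each assay. Symbols starting with Col, Lam, Itg, Slc, Zfp or Hist were left out. The members were thus chosen by their RPF and total RNA values in all 16 libraries. The rule took 92 of the 21977 gene names in the table, or 92 of the 9720 names with a WT mean of at least 100 in both assays. With any symbol allowed, 100 of those 9720 met its numbers (1.03%).

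The study measured ribosome-protected fragments (RPF, the mRNA stretches covered by ribosomes) and total RNA in 8 cultures of mouse embryonic stem cells, which gave 16 libraries. The cultures comprised 3 Nat1-/- lines (B12, B2 and C3, replicates 1 to 3), 3 Nat1+/- lines (A7, B4 and C1, replicates 1 to 3) and 2 cultures of the wild-type line RF8 (WTex1 and WTex2, replicates 1 and 2). All were grown with LIF, a cytokine that holds these cells undifferentiated, in standard medium on gelatin. The targeted cultures were each a separately named line, whereas WT was 1 line sampled in replicate, so the WT spread holds no difference between lines. The sources used here do not say how the Nat1 alleles were made or how the lines were derived.

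Nat1 is today named Eif4g2, and its protein is also known as DAP5 or p97. The protein is a relative of the translation initiation scaffold eIF4G that lacks the part binding the cap-binding protein eIF4E, and it takes part in translation of some mRNAs independently of eIF4E. Mouse embryonic stem cells without it have been described as self-renewing but poor at differentiating. Many of the genes below belong to programs that embryonic stem cells hold at a low level and raise as they differentiate: contractile proteins, matrix, secreted ligands and neural filaments.

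Recovered reads ran from 17.5 to 23.8 M per RPF library and from 13.2 to 42.6 M per total RNA library. Total RNA depth partly followed genotype, with 13.2 to 14.8 M reads in the Nat1+/- libraries and 33.6 to 42.6 M in the WT libraries. A count of 0 allows up to 3 reads, which is at most 3.42 normalised RPF reads or 4.90 normalised total RNA reads, counting error only. All 10 pluripotency markers were detected in every group. Their summed RPF value was 153300 to 173500 in Nat1-/-, 101000 to 111100 in Nat1+/- and 88150 to 106700 in WT cultures. In bulk cultures such as these, fewer cells of a type and less RNA per cell cannot be told apart.

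Eif4g2, the targeted gene, serves as a check of the labels. Its footprints were 1089, 1114 and 922 normalised reads in Nat1-/- cultures, 10261, 7608 and 7275 in Nat1+/- cultures, and 17666 and 13862 in WT cultures. The 3 genotypes did not overlap, and Nat1-/- cultures averaged 12.4% of the Nat1+/- level. Its total RNA was 12249, 8795 and 5085 in Nat1-/-, 15335, 12092 and 10674 in Nat1+/-, and 47932 and 26985 in WT cultures. There Nat1-/- and Nat1+/- overlapped. Eif4g2 was not among the 92: besides that overlap, its Nat1+/- RPF mean was 1.88-fold below WT and its Nat1-/- total RNA mean 1.46-fold below Nat1+/-, both under the 2-fold step.

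The members differed widely in how far they lay below WT. In RPF the Nat1-/- mean was 0.357% of the WT mean for Gbp3 at one end and 20.7% for Marveld2 at the other, with a median of 3.49%. The Nat1+/- mean lay between 3.82% of WT (Acta2) and 49.7% (Dll3), with a median of 27.8%. Set against Nat1+/-, Nat1-/- cultures averaged 1.47% (Gbp3) to 49.1% (Marveld2), median 15.3%. These are the values the rule was applied to, and they are given as a description. Of the 92 members, 10 had a Nat1-/- RPF mean under 1% of WT, and 23 had one over 10%.

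In total RNA the medians were close to those in RPF, at 4.19% of WT and 15.7% of Nat1+/- for the Nat1-/- mean. The total RNA means of 5 members, Acta2, Enpp2, Lrrk2, Prss23 and Sema3c, rested on 3 reads or fewer over the Nat1-/- cultures together, and no fold is given for them. With those 5 members set at 3 reads, which is 1.11 normalised reads, they still lay below both medians. The medians were therefore the same and could not have changed. Among the other 87 the Nat1-/- total RNA mean ran from 0.34% (Vrtn) to 20.1% (Marveld2) of WT.

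**Figure D1:**
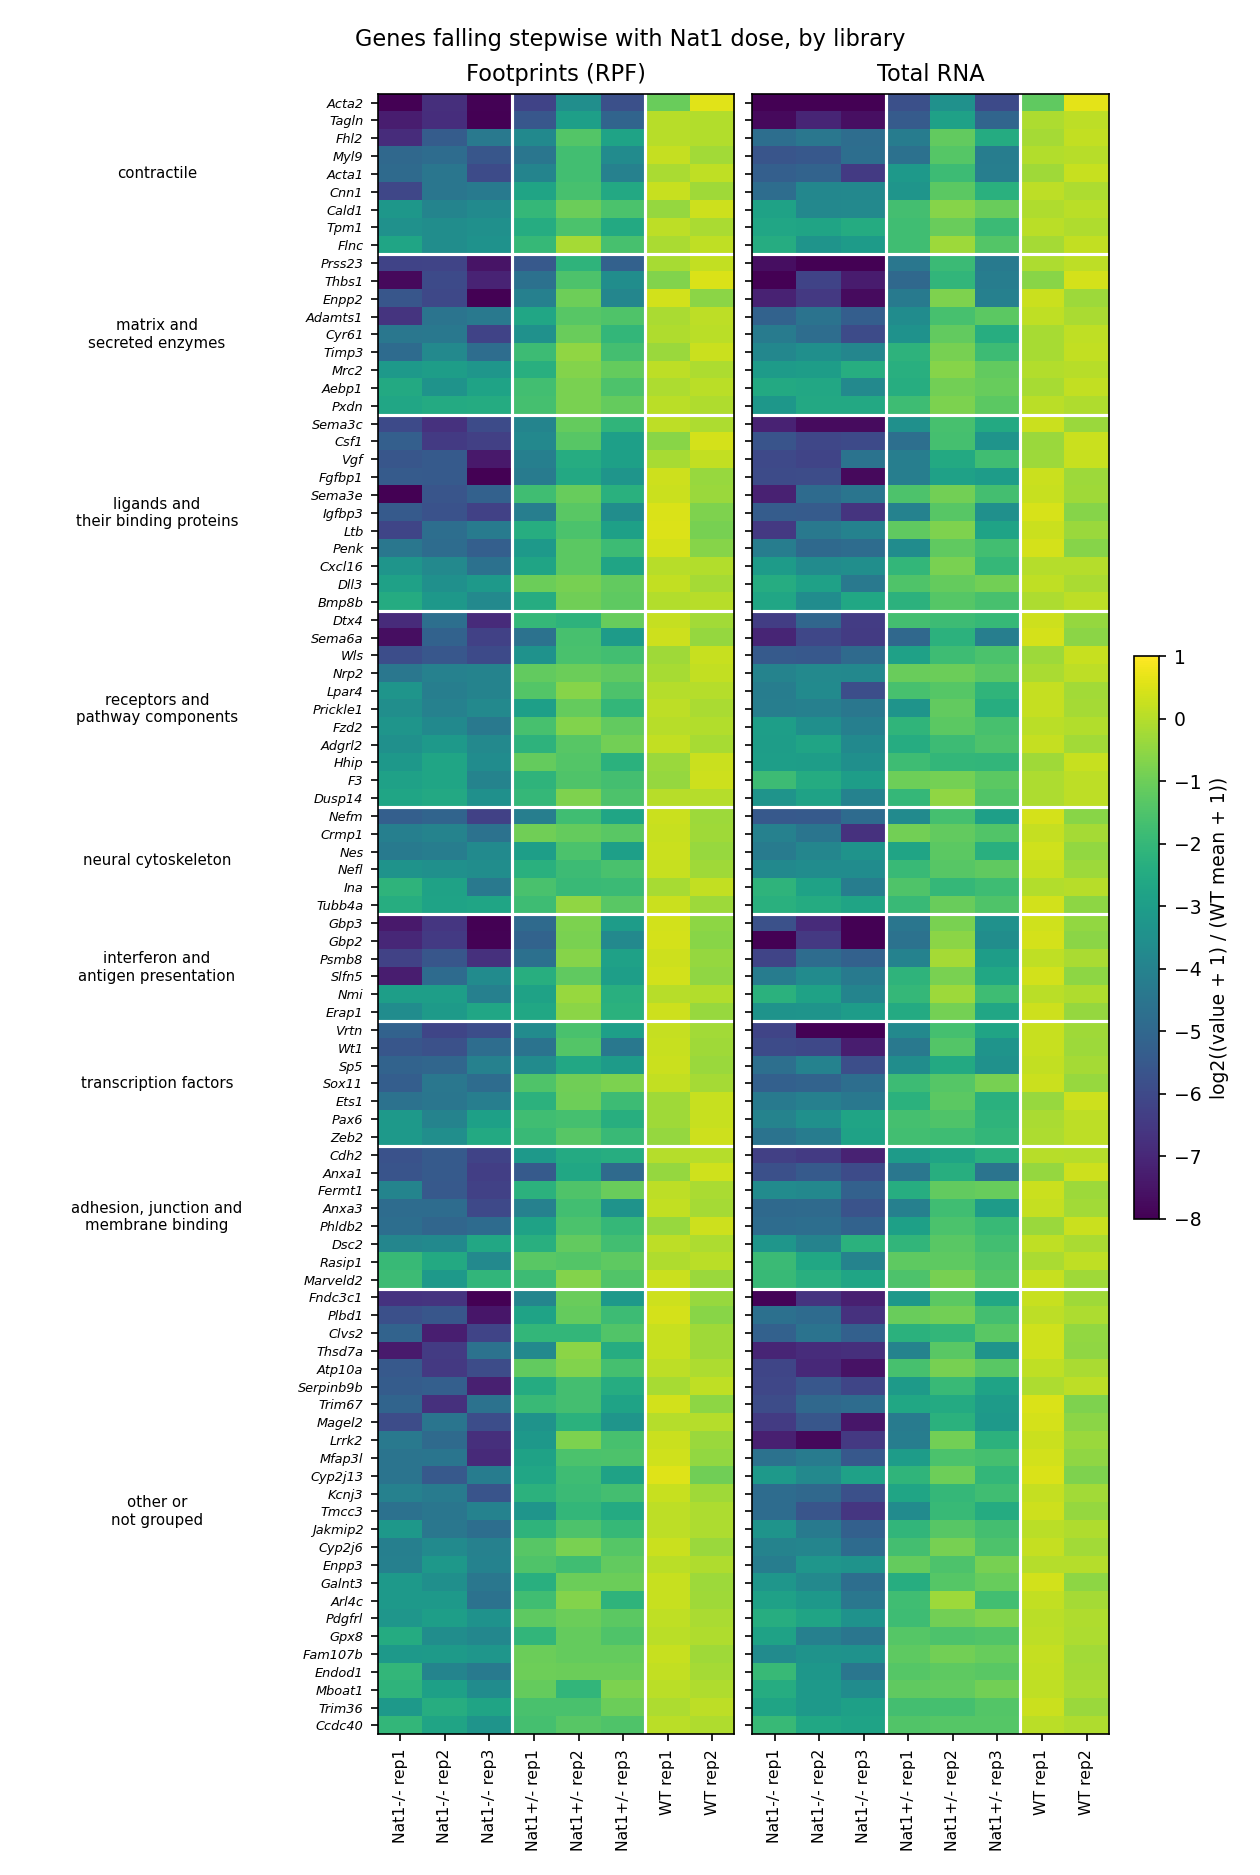
Each row is 1 of the 92 genes and each column a culture, Nat1-/- to the left, then Nat1+/-, then WT, for RPF and for total RNA. Colour gives log2 (value + 1) minus the WT mean of the gene in that assay. The WT columns sit near 0 and the Nat1-/- columns are lowest for every gene because the rule requires it; among the Nat1+/- columns replicate 2 lies closest to WT for most genes.

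At the edge of the rule, the smallest of the 4 fold steps was 2.01 for Dll3, 2.02 for Flnc and 2.03 for Ccdc40, which were inside. Just outside were Gja1 with 1.998, Dusp5 with 1.97 and Gap43 with 1.95. Another 8 genes met the numbers but were left out by symbol, among them the collagens Col1a1, Col1a2 and Col5a2. All 92 members passed the filter of a mean of at least 10 in each assay. Limma with Benjamini-Hochberg adjustment called 87 of them lower in RPF in Nat1-/- than in Nat1+/- cultures, beside 18.6% of 13110 genes lower and 17.6% higher, and 91 in total RNA, beside 20.2% of 13813 lower and 19.8% higher. For Nat1+/- against WT it called 52 lower in RPF, beside 5.13% of genes lower and 5.35% higher, and 59 in total RNA, beside 5.41% lower and 4.6% higher. Over all genes that last comparison had 747 lower and 636 higher calls, and 1155 and 452 with every library scaled to the same sum. The rule used the same contrasts, so nothing is read from these counts.

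In the contractile apparatus there were 9 members: Tpm1 (a tropomyosin, which lies along actin filaments), Tagln (the actin-binding protein SM22-alpha), Cald1 (caldesmon), Acta2 and Acta1 (the smooth and skeletal muscle alpha-actins), Flnc (filamin C, an actin crosslinker), Myl9 (a myosin regulatory light chain), Cnn1 (calponin) and Fhl2 (a LIM protein of muscle). Their median Nat1-/- RPF mean was 19.2% of Nat1+/- and their median Nat1+/- mean 19.3% of WT. Tagln footprints were 35.6, 49.7 and 19.4 normalised reads in Nat1-/-, 121, 763 and 168 in Nat1+/-, and 5906 and 5593 in WT cultures. Tagln total RNA was 9.32, 16 and 10.4 in Nat1-/-, 52.2, 312 and 67.1 in Nat1+/-, and 2105 and 2449 in WT cultures. The WT replicates of Tagln were close to each other, whereas Nat1+/- replicate 2 stood several-fold above the other Nat1+/- cultures in both assays.

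Acta2 footprints were 3.24, 16.9 and 6.84 in Nat1-/-, 26.0, 164 and 33.6 in Nat1+/-, and 928 and 2976 in WT cultures. In total RNA a single Acta2 read was recovered over the 3 Nat1-/- libraries, against 14.7, 79.2 and 12.8 normalised reads in Nat1+/- and 382 and 1356 in WT. Here the WT cultures also differed, replicate 2 being the higher in both assays. The actin genes share long stretches of coding sequence, and the sources used here do not say how reads matching more than 1 place were counted, so the split of reads between Acta1, Acta2 and other actins is uncertain.

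Tpm1 kept a larger share of its WT level than Tagln or Acta2. Its footprints were 1191, 1088 and 1181 in Nat1-/-, 2459, 4506 and 2237 in Nat1+/-, and 14200 and 11984 in WT cultures. Cald1 footprints were 271, 166 and 199 in Nat1-/-, 634, 1269 and 872 in Nat1+/-, and 1930 and 3213 in WT. For Flnc, next to the edge of the rule, Nat1+/- replicate 2, with 1419 footprints, came close to the WT values of 1494 and 1799.

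Of these 9 genes 3 carried a CArG box in a promoter window of 250 bases before to 50 after an annotated start. The CArG box is the DNA element bound by serum response factor (SRF). Only the strict letters CCWWWWWWGG, W being A or T, were searched, so boxes with another letter were not counted. Tpm1, Cald1, Acta2 and Flnc had a window without a strict match. Tagln and Cnn1 had no match to any of the motifs searched, which a missing window would also give. The upstream 250 bases are shown for Acta1, Fhl2 and Myl9 because SRF is a textbook regulator of smooth muscle genes and these were the members with a match. Sequences are from RefSeq (GRCm38.p6), 5′ to 3′ on the gene's strand, with the CArG box in capitals. They lie at chr8:123894776-123895025 on the minus strand, chr1:43196762-43197011 on the minus strand and chr2:156775214-156775463 on the plus strand.
Acta1: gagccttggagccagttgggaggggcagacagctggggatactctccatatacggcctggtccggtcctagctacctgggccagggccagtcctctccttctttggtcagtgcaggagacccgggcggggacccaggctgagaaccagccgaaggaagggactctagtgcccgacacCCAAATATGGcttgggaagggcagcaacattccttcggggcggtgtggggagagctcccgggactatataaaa
Fhl2: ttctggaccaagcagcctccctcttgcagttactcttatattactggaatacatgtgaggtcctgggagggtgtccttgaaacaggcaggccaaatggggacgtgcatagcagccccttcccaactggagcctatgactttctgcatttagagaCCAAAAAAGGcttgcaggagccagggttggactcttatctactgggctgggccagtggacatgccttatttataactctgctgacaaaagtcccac
Myl9: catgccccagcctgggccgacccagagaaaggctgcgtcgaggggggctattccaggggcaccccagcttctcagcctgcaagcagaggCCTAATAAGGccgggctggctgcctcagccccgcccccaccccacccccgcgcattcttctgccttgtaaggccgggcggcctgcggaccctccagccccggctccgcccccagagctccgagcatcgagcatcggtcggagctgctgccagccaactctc
The boxes begin 73, 96 and 161 bases before the start of Acta1, Fhl2 and Myl9. A second Fhl2 start had a further one. Promoter windows were found for 71 of the 92 members, 98 windows in all, and 4 of these held a CArG box on either strand (4.08%). Among 9716 windows of genes with a WT mean of at least 100 the share was 1.22%, and it was 1.63% among all 32851 windows. A match describes the letters only, and no match says only that they were not in this window.

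The list of actin and contractile genes drawn up for the role held 46 tested genes that are not members. Of these 12 fell and 7 rose in RPF in Nat1-/- against Nat1+/- cultures (limma, Benjamini-Hochberg adjusted p under 0.05), with a median log2 difference of -0.15. Over all 13110 genes tested that median was 0.024, with 18.6% lower and 17.6% higher, and the medians of other lists below are from the same comparison. In total RNA 18 of 46 fell and 7 rose (median -0.36), beside a median of 0.0061 over all 13813 genes with 20.2% lower and 19.8% higher; the higher count was 1 without Nat1-/- replicate 2 and 3, 3 and 4 without Nat1+/- replicates 1, 2 and 3. With each culture left out in turn, the RPF counts ran from 7 lower and 4 higher to 16 lower and 11 higher. The first were without Nat1-/- replicate 2 and the last without Nat1-/- replicate 3. Without Nat1+/- replicate 2 the RPF counts were 8 and 4. Palld, the actin scaffold palladin, fell by 3.00 ± 0.21 on the log2 scale (limma, SE, adjusted p = 3.11e-05). Csrp2, a LIM protein of smooth muscle, rose by 1.02 ± 0.15 (limma, adjusted p = 0.00101). Neither was called for Nat1+/- against WT in RPF, with log2 differences of -0.56 for Palld and -0.14 for Csrp2 (limma, adjusted p = 0.149 and 0.598). Of 20 tested SRF targets that are not members, 7 fell and 0 rose in RPF by limma (1 was higher at an unadjusted p under 0.05, list median -0.50), and 7 fell and 3 rose in total RNA (median -0.57), with Egr1 lower by a log2 change of -2.92 ± 0.25 (limma, adjusted p = 7.22e-05). Egr1 was not called for Nat1+/- against WT in RPF, with a log2 difference of -0.40 (limma, adjusted p = 0.357). Leaving out single cultures gave 5 to 8 SRF targets lower and 0 or 1 higher in RPF. In total RNA it gave 5 lower and 1 higher without Nat1-/- replicate 2, and 4 lower and 3 higher without Nat1+/- replicate 2. For Nat1+/- against WT, limma called 14 of these 46 contractile genes lower and 2 higher in RPF. Total RNA gave 13 and 2. Of the 20 SRF targets 5 were lower and 0 higher in RPF, and 6 and 0 in total RNA. At an unadjusted p under 0.05, 2 and 1 were higher. Over all genes 5.13% were lower and 5.35% higher in RPF, and 5.41% and 4.6% in total RNA. Without WT replicate 1 limma called 0 genes for this step in either assay, which limits every list count of it.

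Of 9 smooth muscle markers 4 are members, and their summed level was highest in WT cultures, while Nat1-/- and Nat1+/- cultures overlapped. The sum of all 9 in RPF was 1148 to 1385 in Nat1-/-, 1326 to 2818 in Nat1+/- and 9588 to 11350 in WT cultures. Without the 4 members it was 1094 to 1328 in Nat1-/-, 1097 to 1621 in Nat1+/- and 1742 to 2065 in WT cultures, and no marker was at 0 in a whole group. Smtn was the largest part of that remainder, with 629, 809 and 873 footprints in Nat1+/- and 1245 and 1400 in WT cultures. Actg2 was also higher in both WT cultures than in any other. Des went the other way, with 348, 603 and 363 in Nat1+/- and 284 and 254 in WT cultures. For Myh11 and Lmod1 the Nat1+/- and WT cultures overlapped. Fibroblast markers had a summed RPF value of 19490 to 75030 in Nat1-/-, 56220 to 96870 in Nat1+/- and 15970 to 34590 in WT cultures over 15 genes, 3 of them at 0 in all Nat1-/- cultures and 1 in both WT cultures. Most of that sum was Fn1 (fibronectin), with 18888, 33996 and 73948 footprints in Nat1-/-, 95663, 54023 and 54006 in Nat1+/-, and 12116 and 25424 in WT cultures. The collagens of this list that met the numbers of the rule follow the order because the rule requires it. Col1a1 had 22.7, 45.3 and 38.7 footprints in Nat1-/-, 77.0, 707 and 93.4 in Nat1+/-, and 1911 and 5922 in WT cultures. Col1a2 had 0, 3.55 and 1.14 in Nat1-/-, 13, 113 and 45.1 in Nat1+/-, and 412 and 1362 in WT cultures. Other genes of the list were divided. Like Fn1, Thy1 and Pdgfrb had more footprints in every Nat1+/- culture than in either WT culture. Col3a1, Col6a1, Dcn and Postn had more in both WT cultures than in any Nat1+/- culture. The part of these cells in the result was not tested.

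**Figure D2:**
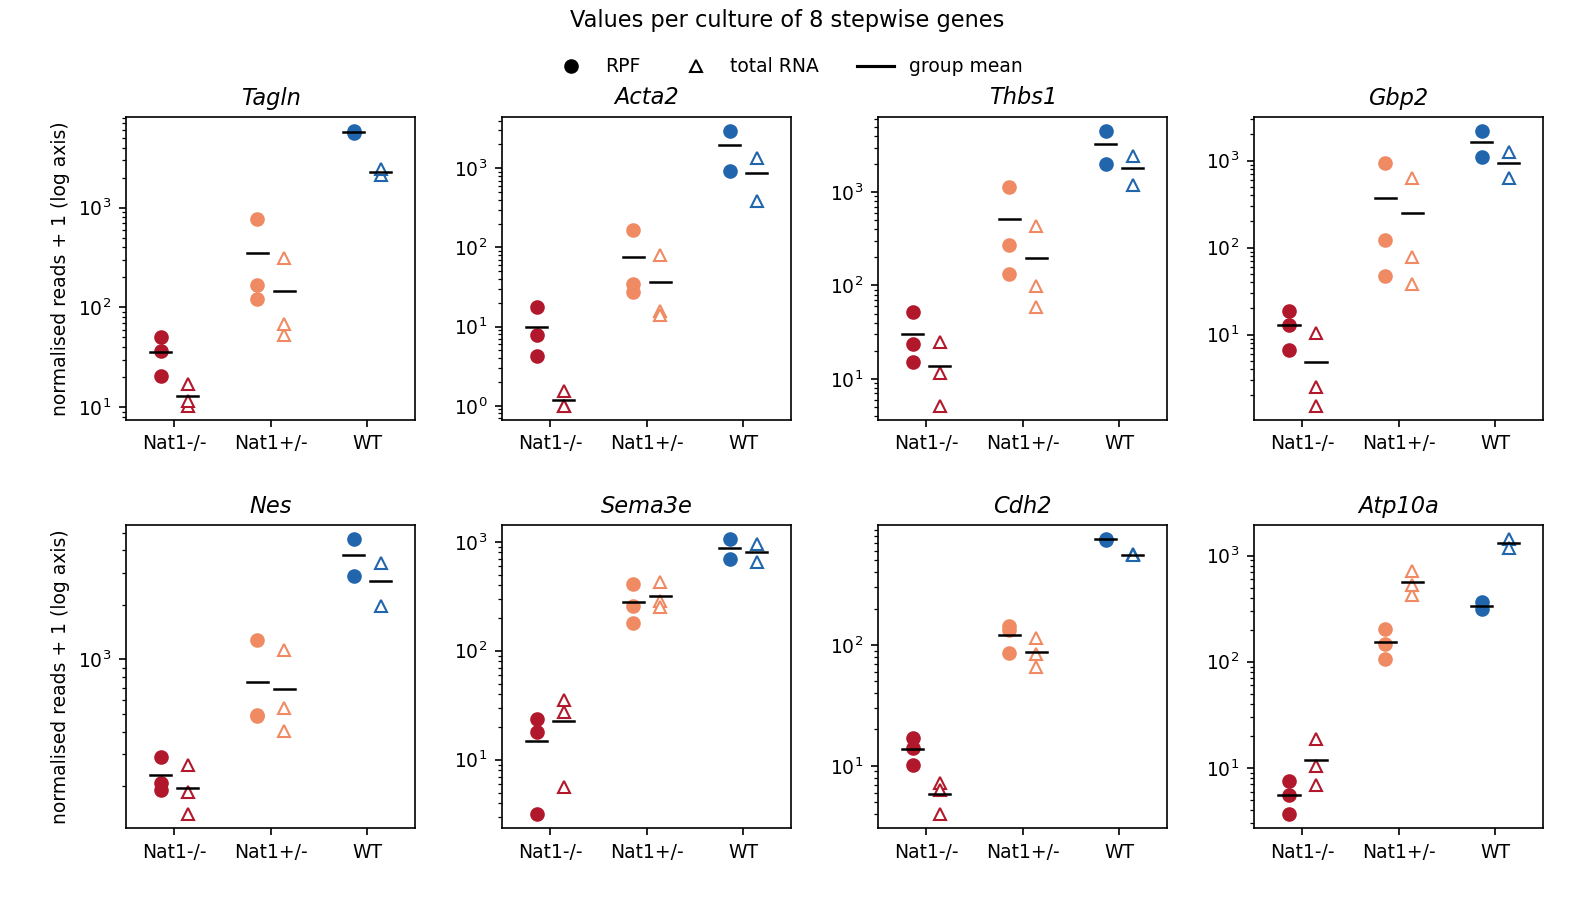
Points are single cultures for 8 members of different roles, RPF and total RNA side by side, with Nat1-/- left, Nat1+/- in the middle and WT right on a log axis of normalised reads + 1; bars mark group means. Tagln, Acta2, Thbs1 and Gbp2 show 1 Nat1+/- culture (replicate 2) far above the other 2. In RPF, Sema3e, Cdh2 and Atp10a show a narrower spread of the 3 Nat1+/- cultures.

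Matrix components and secreted enzymes made up 9 members. Their median Nat1-/- RPF mean was 3.54% of WT. Thbs1, the matricellular protein thrombospondin-1, had 14, 50.6 and 22.8 footprints in Nat1-/-, 130, 1147 and 271 in Nat1+/-, and 1992 and 4541 in WT cultures. Cyr61 (CCN1), another matricellular protein, had 75.6, 78.2 and 21.6 footprints in Nat1-/-, 151, 789 and 404 in Nat1+/-, and 1589 and 1717 in WT cultures. Both were highest among Nat1+/- cultures in replicate 2, whereas the WT replicates differed more for Thbs1 than for Cyr61. Pxdn, a peroxidase that crosslinks collagen IV, kept most: its footprints were 207, 234 and 239 in Nat1-/-, 420, 748 and 610 in Nat1+/-, and 1400 and 1254 in WT cultures. Prss23, a secreted serine protease, had 4.32, 4.44 and 1.14 footprints in Nat1-/-, 7.59, 87.1 and 9.45 in Nat1+/-, and 343 and 434 in WT cultures. Nat1+/- replicates 1 and 3 of Prss23 lay little above the Nat1-/- cultures, and replicate 2 far above them. Enpp2 (autotaxin, which makes lysophosphatidic acid) had a Nat1-/- RPF mean of 1.00% of WT. The others were Timp3, an inhibitor of metalloproteinases, Adamts1, a matrix protease, Aebp1, a collagen-binding matrix protein, and Mrc2, a receptor that takes up collagen, at 2.91% (Adamts1) to 13.5% (Aebp1) of WT.

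Of 39 tested matrix proteins that are not members, 21 fell and 5 rose in RPF in Nat1-/- against Nat1+/- cultures (limma, adjusted p under 0.05). The list median was -1.54, and total RNA gave 20 lower and 5 higher of 38 (median -1.44), with 3 higher without Nat1-/- replicate 2. The list includes collagens that met the numbers of the rule and were left out by symbol. Leaving out single cultures gave 16 to 22 lower and 3 to 5 higher, with 3 higher without Nat1-/- replicate 2. Frem2, a basement membrane protein, fell by 3.99 ± 0.41 on the log2 scale (limma, SE, adjusted p = 0.000168). Of 35 tested genes of matrix processing, 10 fell and 9 rose, with a median of -0.17, and in total RNA 12 of 37 fell and 9 rose (median -0.23). Among these the gelatinase Mmp2 fell by 3.81 ± 0.36 and the heparan sulfatase Sulf1 by 3.45 ± 0.24 (limma, adjusted p = 0.000106 for Mmp2 and 2.66e-05 for Sulf1). None of Frem2, Mmp2 and Sulf1 was called for Nat1+/- against WT in RPF, where their log2 differences were 1.2, 0.13 and -0.72 (limma, adjusted p = 0.11, 0.855 and 0.103). For that step 10 of 39 matrix proteins were lower and 2 higher in RPF, and 5 of 38 and 1 in total RNA. Of the matrix processing genes 7 of 35 were lower and 0 higher in RPF, where 3 were higher at an unadjusted p under 0.05. Total RNA gave 5 lower and 1 higher of 37.

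Ligands and proteins that bind them made up 11 members, with a median Nat1-/- RPF mean of 1.79% of WT. Igfbp3, which carries insulin-like growth factors, had 71.3, 57.7 and 39.9 footprints in Nat1-/-, 176, 1285 and 260 in Nat1+/-, and 4398 and 1886 in WT cultures. Replicates differed within Nat1+/- and within WT by more than 2-fold. Sema3e, a secreted semaphorin, had 2.16, 16.9 and 22.8 footprints in Nat1-/-, 256, 409 and 177 in Nat1+/-, and 1055 and 690 in WT cultures. For Sema3e the step from Nat1+/- to Nat1-/- was the wider: the Nat1-/- mean was 4.96% of Nat1+/- and the Nat1+/- mean 32.2% of WT. Sema3c, a second semaphorin of the class, had 2.16, 0.888 and 2.28 footprints in Nat1-/-, 11.9, 91.1 and 45.1 in Nat1+/-, and 211 and 186 in WT cultures. Csf1, the growth factor of macrophages, had 3.24, 0.888 and 1.14 footprints in Nat1-/-, 10.8, 64.8 and 21.0 in Nat1+/-, and 110 and 221 in WT cultures. The Nat1-/- values of Sema3c and Csf1 amount to a few reads per library.

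Fgfbp1, a secreted carrier of fibroblast growth factors, had a Nat1-/- RPF mean of 1.55% of WT. The peptide precursors Vgf and Penk (proenkephalin) had 1.38% and 3.26%. The immune ligands Ltb (lymphotoxin beta) and Cxcl16 had 3.00% and 7.0%. Dll3, an atypical Notch ligand, and Bmp8b, a bone morphogenetic protein, kept the most, at 11% and 11.4% of WT. Of 48 tested growth factors, receptors and binding proteins that are not members, 15 fell and 11 rose in RPF in Nat1-/- against Nat1+/- cultures (limma, adjusted p under 0.05; median -0.46). These counts were 6 and 7 without Nat1-/- replicate 2, 7 and 10 without Nat1+/- replicate 3, and 8 and 7 without Nat1+/- replicate 2. For total RNA they were 16 lower and 14 higher of 49 (median -0.36), and 10 and 11 without Nat1+/- replicate 2. The receptors differed in direction: Fgfr2 and Met fell by 4.57 ± 0.40 and 3.78 ± 0.32 on the log2 scale, whereas Fgfr3 rose by 3.09 ± 0.28 (limma, SE, adjusted p = 7.06e-05, 6.79e-05 and 9.19e-05). None was called for Nat1+/- against WT in RPF, with log2 differences of -0.59, 0.17 and 0.49 (limma, adjusted p = 0.389, 0.782 and 0.309). For that step 7 of the 48 listed genes were lower and 2 higher in RPF. Total RNA gave 6 lower and 4 higher of 49.

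Receptors and proteins that act just below them made up 11 members, with a median Nat1-/- RPF mean of 7.09% of WT. Nrp2, a co-receptor of class 3 semaphorins and of vascular endothelial growth factors, had 87.5, 114 and 120 footprints in Nat1-/-, 836, 930 and 818 in Nat1+/-, and 1652 and 2128 in WT cultures. The 3 Nat1+/- cultures lay close together for Nrp2. Sema6a, a membrane semaphorin, had 3.24, 23.1 and 10.3 footprints in Nat1-/-, 34.7, 280 and 103 in Nat1+/-, and 1077 and 650 in WT cultures. Fzd2, a receptor of WNT ligands, had 63.7, 48.0 and 30.8 footprints in Nat1-/-, 211, 394 and 285 in Nat1+/-, and 656 and 631 in WT cultures. Wls, which carries WNT ligands to the cell surface, had 9.72, 12.4 and 9.11 footprints in Nat1-/-, 58.6, 213 and 191 in Nat1+/-, and 523 and 746 in WT cultures. Fzd2 and Wls thus sit at the receiving and the sending side of the pathway, and Prickle1, of planar cell polarity, had a Nat1-/- mean of 7.09% of WT.

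Lpar4, a receptor of the lysophosphatidic acid that Enpp2 makes, had a Nat1-/- RPF mean of 6.78% of WT. Hhip binds and restrains Hedgehog ligands, and its Nat1-/- mean was 10.8% of WT. Dtx4, an E3 ligase of the Deltex family that acts on Notch, was at 1.01%, with 0, 3.55 and 0 footprints in the Nat1-/- cultures, 28.2, 25.3 and 54.6 in Nat1+/-, and 138 and 97.8 in WT. Adgrl2 (a latrophilin), F3 (tissue factor, which starts blood clotting) and Dusp14 (a dual specificity phosphatase) were at 8.99%, 11.7% and 13.5%. Of 45 tested axon guidance genes that are not members, 14 fell and 7 rose in RPF in Nat1-/- against Nat1+/- cultures (limma, adjusted p under 0.05), with a median of -0.31, and with 4 higher without Nat1+/- replicate 2 or 3. The balance was the other way in total RNA, where 6 of 46 fell and 12 rose (median 0.016). Slit2, a secreted guidance cue, fell by 3.87 ± 0.44 on the log2 scale, and Sema7a, a membrane-anchored semaphorin, rose by 2.87 ± 0.27 (limma, SE, adjusted p = 0.000298 and 0.000115). Their RPF log2 differences between Nat1+/- and WT were 1.35 and 1.17 (limma, adjusted p = 0.0994 and 0.0419). The Sema7a call was lost without Nat1-/- replicate 2, any 1 of the Nat1+/- replicates or either WT replicate. Of 39 tested WNT genes, 15 fell and 6 rose, with a median of -0.70, and 9 fell and 4 rose without Nat1-/- replicate 2. In total RNA 12 of 41 fell and 11 rose, with a median of -0.0093. Fzd7 fell by 2.43 ± 0.18 and Notum, which inactivates WNT proteins, rose by 2.02 ± 0.22 (limma, SE, adjusted p = 3.11e-05 and 0.00027). Neither stepped with dose: Notum averaged 677 footprints in Nat1-/-, 166 in Nat1+/- and 628 in WT cultures, and Fzd7 644 in Nat1-/-, 3545 in Nat1+/- and 1707 in WT cultures. Between Nat1+/- and WT the log2 differences were -1.93 for Notum and 1.03 for Fzd7 (limma, adjusted p = 0.0082 and 0.0212), calls lost without either WT replicate and, for Fzd7, without Nat1+/- replicate 1. For that step, of the 45 axon guidance genes 5 were lower and 8 higher in RPF (median 0.20). Total RNA gave 6 lower and 2 higher of 46 (median -0.19). Of the 39 WNT genes 2 were lower and 4 higher in RPF (median -0.23). Total RNA gave 10 lower and 2 higher of 41 (median -0.70).

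The neural cytoskeleton held 6 members, which kept more than most, with a median Nat1-/- RPF mean of 7.47% of WT. Nes (nestin), the intermediate filament of neural progenitors, had 190, 206 and 287 footprints in Nat1-/-, 488, 1273 and 494 in Nat1+/-, and 4615 and 2904 in WT cultures. Nefl, the light neurofilament subunit, had 66.9, 62.2 and 58.1 footprints in Nat1-/-, 144, 195 and 231 in Nat1+/-, and 832 and 572 in WT cultures. The Nat1-/- cultures lay close together for Nefl, and its highest Nat1+/- culture was replicate 3. Nefm, the medium subunit, had 5.40, 6.22 and 2.28 footprints in Nat1-/-, 13, 71.9 and 36.7 in Nat1+/-, and 300 and 198 in WT cultures. Nefl and Nefm are direct neighbours on chromosome 14, with 0 genes of the table between them, yet their Nat1-/- means were 8.89% and 1.86% of WT. Ina (alpha-internexin), Crmp1 (a collapsin response mediator, which acts below semaphorins) and Tubb4a (a tubulin of neurons and glia, whose reads may be shared with other tubulins) were at 13.8%, 5.37% and 16.1%. Of 7 tested filament genes of nerve and muscle that are not members, 1 fell and 3 rose in RPF in Nat1-/- against Nat1+/- cultures (limma, adjusted p under 0.05; median 0.51), with 1 higher without Nat1-/- replicate 2 or Nat1+/- replicate 2, and 2 lower and 2 higher without Nat1-/- replicate 1. In total RNA the direction turned, with 2 lower and 1 higher (median -0.13), and single cultures left out gave 1 or 2 either way: the lower count was 1 when B2, A7 or B4 was absent, and the higher count 2 when B4 was. Synm (synemin) fell by 2.78 ± 0.34 on the log2 scale, and Prph (peripherin) rose by 1.64 ± 0.21 (limma, SE, adjusted p = 0.000397 and 0.000481). Their RPF log2 differences between Nat1+/- and WT were 1.39 and -0.73 (limma, adjusted p = 0.0459 and 0.0687). The Synm call, higher in Nat1+/- than in WT, was lost without Nat1-/- replicate 2, any 1 of the Nat1+/- replicates or either WT replicate. The small rises of Vim and Gfap were lost in some sets with 1 culture left out (limma, highest adjusted p = 0.0707 and 0.125), for Vim when B2, B4 or C1 was absent, and for Gfap when any culture but C1 was absent. For Nat1+/- against WT, 1 of the 7 filament genes was lower and 1 higher in each assay.

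The neuroectoderm markers, 3 of 8 of which are members, summed in RPF to 1190 to 1949 in Nat1-/-, 2725 to 4636 in Nat1+/- and 9192 to 10740 in WT cultures. Without the members the sums were 863.5 to 1729, 1832 to 2995 and 5297 to 5575 in those groups. None was at 0 in a whole group, and Sox1, the early neural factor, went the other way, with 87.5, 92.4 and 110 footprints in Nat1-/-, 22.8, 19.2 and 40.9 in Nat1+/-, and 14.8 and 5.81 in WT cultures. Tubb3 and Gap43 were most of the sum without the members, and Gap43 lay just outside the rule. Map2 overlapped between Nat1+/- (188, 245 and 227) and WT cultures (193 and 243). The part of these markers in the result was not tested.

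By main role, the interferon response and antigen presentation held 6 members. Gbp2, an interferon-induced GTPase, had 11.9, 17.8 and 5.70 footprints in Nat1-/-, 45.5, 932 and 121 in Nat1+/-, and 2203 and 1101 in WT cultures. Its total RNA was 0.518, 9.33 and 1.49 in Nat1-/-, 37.6, 629 and 77.1 in Nat1+/-, and 1251 and 632 in WT cultures. Nat1+/- replicate 2 alone came near the lower WT culture in both assays. Psmb8, a catalytic subunit of the immunoproteasome, had 5.40, 8.88 and 3.42 footprints in Nat1-/-, 17.3, 305 and 64.0 in Nat1+/-, and 592 and 354 in WT cultures. Gbp3 had 1.08, 2.66 and 0 footprints in Nat1-/-, 10.8, 203 and 42.0 in Nat1+/-, and 454 and 245 in WT cultures. Gbp2 and Gbp3 are close relatives with 1 listed gene between them on chromosome 3, and reads common to both could have been split between them.

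All 6 genes of the interferon group were highest among the Nat1+/- cultures in replicate 2, and higher in WT replicate 1 than in WT replicate 2, in both assays. The median RPF ratio of Nat1+/- replicate 2 to replicate 1 was 11.5-fold in this group, the widest of the 8 role groups, with a range of 2.28 (Slfn5) to 20.4 (Gbp2). The remaining 3 genes were Erap1, an aminopeptidase that trims peptides for presentation, Nmi, an interferon-induced partner of STAT proteins, and Slfn5 of the Schlafen family, at 11.7%, 10.2% and 3.41% of WT in the Nat1-/- RPF mean. Of 29 tested genes of the same response that are not members, 12 fell and 4 rose in RPF in Nat1-/- against Nat1+/- cultures (limma, adjusted p under 0.05; median -0.55), with 10 to 14 lower and 2 to 4 higher when single cultures were left out, 2 without Nat1-/- replicate 2. B2m, the light chain of class I molecules, fell by 2.49 ± 0.16 on the log2 scale, and Tap1, the peptide transporter, by 2.66 ± 0.26 (limma, SE, adjusted p = 2.17e-05 and 0.000144). Between Nat1+/- and WT cultures Tap1 differed by -0.06 on the log2 scale (limma, adjusted p = 0.907). B2m differed by -0.75 there (limma, adjusted p = 0.0337), a call lost without Nat1-/- replicate 2, Nat1+/- replicate 1 or 3, or either WT replicate. Slfn9 fell by 4.88 ± 0.35 in Nat1-/- against Nat1+/- (limma, adjusted p = 3.11e-05), but was higher in Nat1+/- than in WT by 2.23 (limma, adjusted p = 0.0171), a call lost without Nat1+/- replicate 1 or either WT replicate. Besides the 6, the list holds Cxcl16, which is described with the ligands, and it was drawn up after these members were known. Total RNA gave 14 lower and 3 higher of 30 (median -0.80). For Nat1+/- against WT, 7 of 29 were lower and 1 higher in RPF, and 5 of 30 and 1 in total RNA.

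The promoters of Gbp2 and Gbp3 are shown because both carry the core of the interferon-stimulated response element, TTTCNNTTTC, in capitals. They are the upstream 250 bases from RefSeq (GRCm38.p6), both on the plus strand, at chr3:142620413-142620662 and chr3:142559794-142560043.
Gbp2: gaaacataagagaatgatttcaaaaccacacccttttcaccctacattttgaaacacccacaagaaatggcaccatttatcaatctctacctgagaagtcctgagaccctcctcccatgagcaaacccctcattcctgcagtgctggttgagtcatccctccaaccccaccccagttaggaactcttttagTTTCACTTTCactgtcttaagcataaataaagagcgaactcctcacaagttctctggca
Gbp3: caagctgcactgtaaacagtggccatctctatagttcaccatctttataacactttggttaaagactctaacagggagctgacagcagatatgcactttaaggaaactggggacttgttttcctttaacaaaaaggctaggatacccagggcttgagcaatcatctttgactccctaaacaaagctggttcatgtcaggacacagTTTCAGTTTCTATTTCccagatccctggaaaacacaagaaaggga
In Gbp2 the core begins 59 bases before the start, and in Gbp3 overlapping copies begin 45 and 39 bases before it. The core was found on either strand in 5 of the 98 member windows (5.10%), those of Gbp2, Gbp3, Wls, Slfn5 and Erap1. It was in 2.55% of the windows of genes with a WT mean of at least 100 and in 3.44% of all windows. Nmi and Psmb8 had a window without it.

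Transcription factors and DNA-binding proteins made up 7 members, with a median Nat1-/- RPF mean of 3.44% of WT. Sox11, an SRY-related factor of neural progenitors, had 15.1, 28.4 and 21.6 footprints in Nat1-/-, 226, 325 and 373 in Nat1+/-, and 713 and 550 in WT cultures. Its Nat1-/- mean was 7.06% of Nat1+/- and its Nat1+/- mean 48.7% of WT. Sp5, a direct target of WNT signalling, had the opposite balance, with 3.24, 3.55 and 7.97 footprints in Nat1-/-, 10.8, 23.3 and 16.8 in Nat1+/-, and 182 and 114 in WT cultures. Its Nat1-/- mean was 29.0% of Nat1+/- and its Nat1+/- mean 11.5% of WT. Ets1 had 6.48, 7.10 and 9.11 footprints in Nat1-/-, 38.0, 90.1 and 49.3 in Nat1+/-, and 146 and 214 in WT cultures. Wt1, a factor of kidney and gonad development, had 2.16, 1.78 and 4.56 in Nat1-/-, 5.42, 56.7 and 6.30 in Nat1+/-, and 180 and 124 in WT cultures. Nat1+/- replicates 1 and 3 of Wt1 stood close to the Nat1-/- cultures, and replicate 2 stood far above them. Pax6 (of eye and forebrain), Zeb2 (a repressor of E-cadherin) and Vrtn (vertnin) were at 9.89%, 11.5% and 1.46% of WT. Of 54 tested developmental transcription factors that are not members, 16 fell and 11 rose in RPF in Nat1-/- against Nat1+/- cultures (limma, adjusted p under 0.05; median -0.22), and in total RNA 12 of 53 fell and 11 rose (median -0.12). Sox4, a relative of Sox11, fell by 3.33 ± 0.23 on the log2 scale, and Tbx20, a T-box factor of the heart, rose by 3.76 ± 0.44 (limma, SE, adjusted p = 2.66e-05 and 0.000329). Sox4 was not called for Nat1+/- against WT in RPF, with a log2 difference of -0.13 (limma, adjusted p = 0.76). Tbx20 averaged 391 footprints in Nat1-/-, 28.9 in Nat1+/- and 111 in WT cultures. For Nat1+/- against WT, 4 of the 54 listed factors were lower and 2 higher in RPF, and 12 of 53 and 1 in total RNA.

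Adhesion, junctions and membrane binding held 8 members. Cdh2 (N-cadherin), an adhesion molecule of neural and mesenchymal cells, had 13, 16 and 9.11 footprints in Nat1-/-, 84.6, 133 and 143 in Nat1+/-, and 749 and 743 in WT cultures. The groups were tight, and Nat1+/- replicate 2 did not stand apart. Anxa1, a phospholipid-binding annexin, had 25.9, 30.2 and 15.9 footprints in Nat1-/-, 30.4, 220 and 45.1 in Nat1+/-, and 1004 and 1720 in WT cultures. Its lowest Nat1+/- culture was level with its highest Nat1-/- culture. Anxa3, another annexin, had 50.7, 51.5 and 21.6 in Nat1-/-, 87.8, 443 and 142 in Nat1+/-, and 1661 and 1267 in WT cultures. Marveld2 (tricellulin, of corners where 3 cells meet) and Rasip1 (a Ras-interacting regulator of cell adhesion) kept 20.7% and 16.6% of WT, Dsc2 (a desmosomal cadherin) 9.95%, Phldb2 (a membrane anchor of microtubules) 3.25% and Fermt1 (kindlin-1, an integrin activator) 2.73%. Of 46 tested adhesion genes that are not members, 17 fell and 10 rose in RPF in Nat1-/- against Nat1+/- cultures (limma, adjusted p under 0.05; median -0.43), with 6 higher without Nat1+/- replicate 2. The total RNA counts were 17 lower and 13 higher of 48 (median -0.29). Cdh3 (P-cadherin) fell by 2.31 ± 0.15 on the log2 scale and Dsg2 (a desmoglein) rose by 0.98 ± 0.13 (limma, SE, adjusted p = 1.9e-05 and 0.000723). Neither was called for Nat1+/- against WT in RPF, with log2 differences of 0.52 and 0.36 (limma, adjusted p = 0.0663 and 0.143). For that step 4 of the 46 adhesion genes were lower and 3 higher in RPF (median 0.09). Total RNA gave 5 lower and 3 higher of 48 (median -0.22).

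The remaining 25 members share no role, and their median Nat1-/- RPF mean was 4.31% of WT. Enpp3, an ectonucleotidase, had 309, 571 and 326 footprints in Nat1-/-, 1909, 1550 and 2374 in Nat1+/-, and 5502 and 5080 in WT cultures. Atp10a, a flippase of membrane lipids, had 6.48, 2.66 and 4.56 footprints in Nat1-/-, 147, 205 and 106 in Nat1+/-, and 360 and 310 in WT cultures. Its Nat1-/- mean was 2.99% of Nat1+/- and its Nat1+/- mean 45.5% of WT. Magel2, which is imprinted and lies in the same region of chromosome 7 with 4 genes of the table between, had 1.08, 4.44 and 1.14 footprints in Nat1-/-, 10.8, 25.3 and 11.5 in Nat1+/-, and 124 and 123 in WT cultures. For Magel2 the Nat1+/- mean was 12.9% of WT. Of 28 tested imprinted genes that are not members, 12 fell and 1 rose in RPF in Nat1-/- against Nat1+/- cultures (limma, adjusted p under 0.05; median -0.78), with 8 to 14 lower and 1 or 2 higher when single cultures were left out. In total RNA 19 of 30 fell and 3 rose (median -1.12), with 12 lower without Nat1-/- replicate 2 and 10 without Nat1+/- replicate 2. Snrpn, of the same imprinted region, fell by 4.75 ± 0.46 on the log2 scale in RPF (limma, SE, adjusted p = 0.000117). It was not called for Nat1+/- against WT in RPF, with a log2 difference of -1.32 (limma, adjusted p = 0.115). For that step 6 of the 28 imprinted genes were lower and 0 higher in RPF, and 5 of 30 and 0 in total RNA. At an unadjusted p under 0.05, 2 and 4 were higher.

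Fndc3c1 had 4.32, 4.44 and 0 footprints in Nat1-/-, 35.8, 262 and 59.8 in Nat1+/-, and 681 and 417 in WT cultures. Clvs2 (clavesin 2, a lipid-binding protein of neurons) had 3.24, 0 and 1.14 in Nat1-/-, 35.8, 35.4 and 54.6 in Nat1+/-, and 177 and 122 in WT cultures. Plbd1 had 2.16, 2.66 and 0 in Nat1-/-, 24.9, 80.0 and 48.3 in Nat1+/-, and 237 and 114 in WT cultures. All 3 were under 1% of WT in the Nat1-/- RPF mean. The kinase Lrrk2 (2.14%), the cytochromes P450 Cyp2j6 (5.78%) and Cyp2j13 (3.19%), the serpin Serpinb9b (1.57%) and the potassium channel subunit Kcnj3 (4.17%) were also low, and reads of Cyp2j6 and Cyp2j13, and of Serpinb9b, may be shared with near-identical genes. Thsd7a, Trim67, Mfap3l, Tmcc3, Jakmip2 and Galnt3 lay between 1.36% and 7.87% of WT. Arl4c, Pdgfrl, Gpx8, Fam107b, Endod1, Mboat1, Trim36 and Ccdc40 kept 8.71% to 16.1%.

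**Figure D3:**
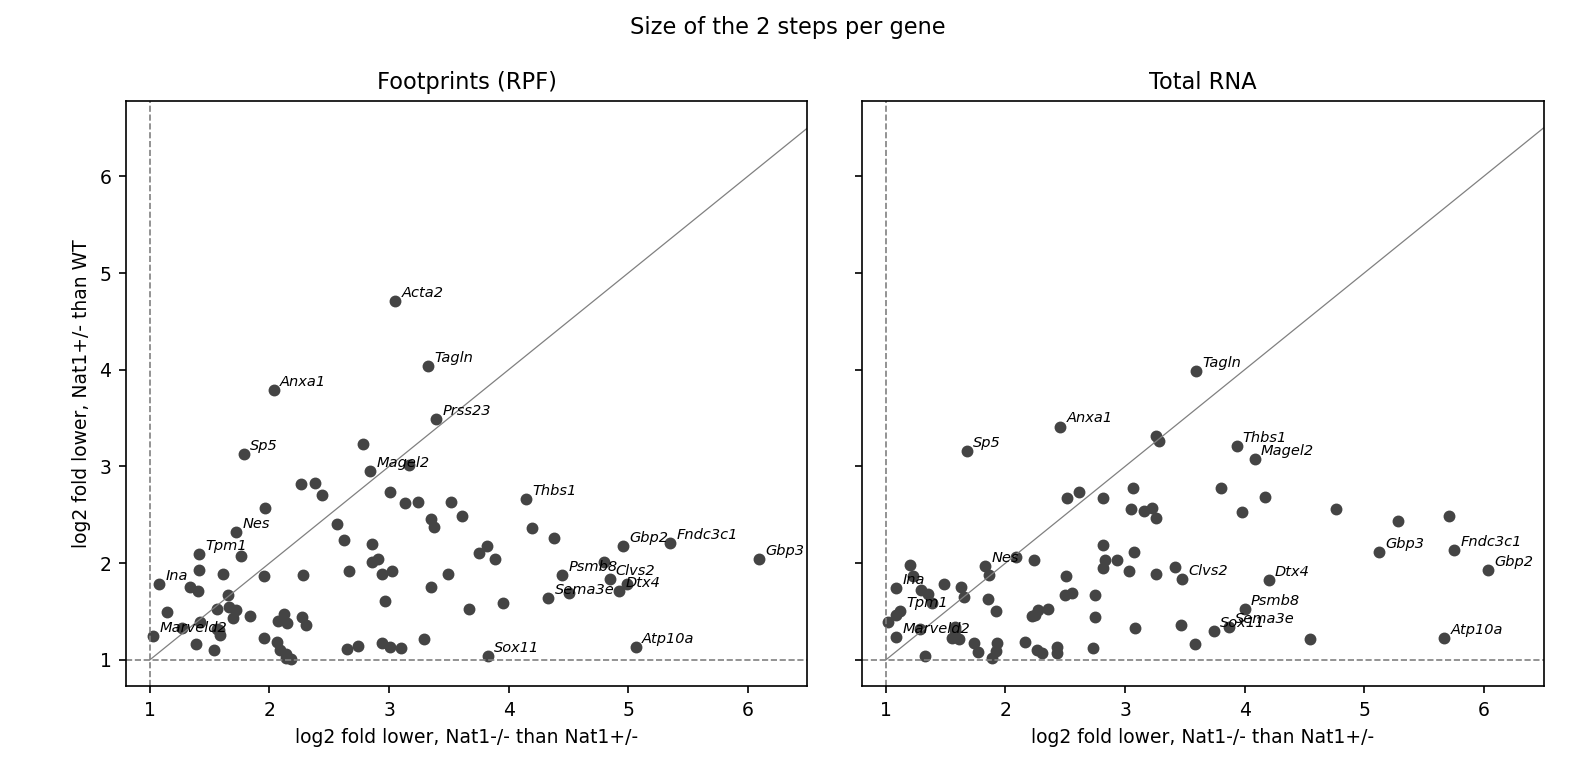
Each point is a gene, with the log2 fold by which Nat1-/- lay below Nat1+/- on the x axis and the log2 fold by which Nat1+/- lay below WT on the y axis, RPF left and total RNA right (without the 5 genes of 3 or fewer Nat1-/- total RNA reads); the diagonal marks equal steps. More points lie right of the diagonal, 69 of 92 in RPF.

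The steps were not even. In RPF the step between Nat1-/- and Nat1+/- was the wider for 69 of 92 members, and in total RNA for 71, with 61 in both assays. The median step on the log2 scale was 2.70 between Nat1-/- and Nat1+/- and 1.85 between Nat1+/- and WT in RPF, and 2.67 and 1.8 in total RNA. The step between Nat1+/- and WT was the wider in both assays for 13 members: Anxa1, Anxa3, Ccdc40, Dsc2, Ina, Marveld2, Nes, Pax6, Rasip1, Sp5, Tagln, Tpm1 and Zeb2. These step widths come from the contrasts of the rule and carry no test.

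What the rule did not use was the order of cultures within a genotype. Nat1+/- replicate 2 (line B4) was the highest of the 3 Nat1+/- cultures for 74 of 92 members in RPF (80.4%) and 68 in total RNA (73.9%), 65 of them in both. Over the 9720 genes with a WT mean of at least 100 the shares were 32.9% and 31.0%. Over the 1701 of these genes in RPF whose means were lower at both steps the share was 50.7%, and over the 2259 whose means were higher at both steps it was 23.5%. Nat1+/- replicate 1 (line A7) was the lowest for 65 members in RPF and 69 in total RNA. The median member lay 2.37, 1.31 and 1.96 log2 units below its WT mean in RPF in Nat1+/- replicates 1, 2 and 3. In Nat1-/- replicates 1, 2 and 3 those medians were 4.42, 4.44 and 4.48 below. Members share their cultures, so these counts carry no test.

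The lead of replicate 2 was uneven across roles. All 9 contractile genes, all 9 matrix genes, all 11 ligand genes and all 6 interferon genes were highest in replicate 2 in RPF, against 8 of 11 receptors, 6 of 7 transcription factors, 5 of 8 adhesion genes, 3 of 6 neural cytoskeleton genes and 17 of the remaining 25. Replicate 2 exceeded both other Nat1+/- cultures more than 4-fold in both assays for 11 members: Acta2, Anxa1, Enpp2, Gbp2, Gbp3, Igfbp3, Prss23, Psmb8, Tagln, Thbs1 and Wt1. It was highest in neither assay for 15: Adgrl2, Cdh2, Clvs2, Crmp1, Dtx4, Enpp3, Fermt1, Hhip, Ina, Kcnj3, Mboat1, Nefl, Rasip1, Sox11 and Trim36.

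Eif4g2 footprints did not follow that order, with 7608 in replicate 2 against 10261 and 7275 in replicates 1 and 3. Of the 10 marker sums in RPF, 5 were highest among the Nat1+/- cultures in replicate 2 (smooth muscle, endothelial, blood, trophoblast and neuroectoderm) and 5 were not (pluripotent, fibroblast, endoderm, mesoderm and surface epithelium). The blood sums were close in replicates 2 and 3 (79.0 and 72.4), and in total RNA replicate 3 was the higher (108.5 against 97.9). Pecam1 was most of the endothelial sum, Cdh1 most of the surface epithelium sum and Fn1 most of the fibroblast sum. From those last lists, Krt19 (334, 2083 and 562) and Col1a1 (77.0, 707 and 93.4) were highest in replicate 2, but Cdh1 and Fn1 in replicate 1. The split thus describes sums, not cell types. Smooth muscle markers were 2818 in Nat1+/- replicate 2 against 1326 and 1684 in replicates 1 and 3. Neuroectoderm markers were 4636 against 3261 and 2725. These sums include 4 and 3 members. Without the members the Nat1+/- cultures ran from 1097 to 1621 and from 1832 to 2995, replicate 2 still being the highest. Trophoblast markers, none of which is a member, were 6071 against 3046 and 2596. Over all cultures the 10 trophoblast markers summed to 1784 to 1894 in Nat1-/-, 2596 to 6071 in Nat1+/- and 10470 to 13000 in WT cultures. Krt8 and Krt18, keratins that other epithelia also make, were most of it in Nat1-/- and WT cultures and in Nat1+/- replicate 2. In Nat1+/- replicates 1 and 3 most of it was Tfap2c. Krt8 had 903, 776 and 566 footprints in Nat1-/-, 327, 1558 and 372 in Nat1+/-, and 4308 and 4322 in WT cultures. Transcription factors among these markers differed in their order. Cdx2 had at most 1.14 footprints in Nat1-/-, at most 4.05 in Nat1+/-, and 21.0 and 40.7 in WT cultures. Elf5 footprints were 0 in all 3 Nat1-/- cultures, 0, 11.1 and 2.1 in Nat1+/-, and 6.21 and 5.81 in WT, but its total RNA was 22.3, 18.7 and 22.4 in Nat1-/-, 22.9, 18.7 and 17.1 in Nat1+/-, and 17.9 and 20.6 in WT. Eomes had 113, 137 and 133 footprints in Nat1-/-, 102, 96.2 and 124 in Nat1+/-, and 83.1 and 83.3 in WT cultures. Tfap2c had 275, 330.4 and 688 in Nat1-/-, 2004, 2084 and 1438 in Nat1+/-, and 1097 and 1530 in WT cultures. The part of such cells in the result was not tested.

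The WT cultures differed less. WT replicate 1 was the higher for 65 members in RPF and 62 in total RNA, 59 of them in both, and WT replicate 2 for 24 in both. The shares of WT replicate 1 were 70.7% and 67.4%, beside 47.1% and 47.8% of the 9720 genes with a WT mean of at least 100. Among those of the 9720 whose means were lower at both steps they were 61.1% and 55.7%. In RPF WT replicate 1 was higher in all 6 interferon genes and 23 of the 25 ungrouped genes, against 5 of 9 contractile and 3 of 9 matrix genes. WT replicate 2 exceeded replicate 1 by more than 1.5-fold in both assays for 5 members: Acta2, Anxa1, Csf1, Phldb2 and Thbs1.

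**Figure D4:**
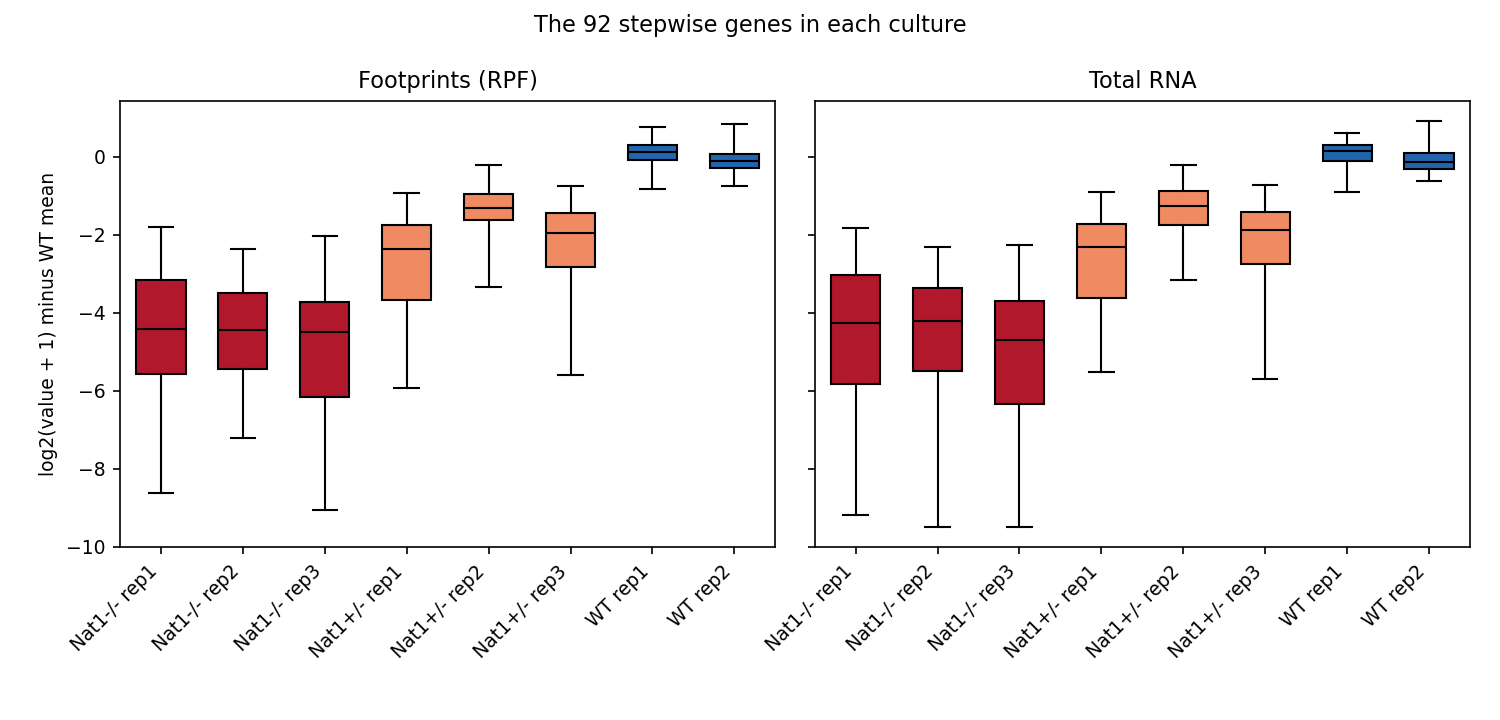
Boxes give the spread over the 92 genes of log2 (value + 1) minus the gene's WT mean in each culture, Nat1-/- left, then Nat1+/-, then WT, for RPF and total RNA; lines are medians, boxes quartiles and whiskers the full range. In RPF the medians of the Nat1-/- cultures run from -4.48 to -4.42, and those of Nat1+/- run from -2.37 to -1.31, replicate 2 being the highest.

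Footprints and total RNA went down together. The ratio of RPF to total RNA, taken as log2(value + 1) of RPF minus that of total RNA in the same culture, differed between Nat1-/- and Nat1+/- by a median of 0.035 over the 92 members and 0.0131 over all 12933 genes tested. Between Nat1+/- and WT the median difference was -0.0053 over the members and 0.0216 over all genes. The ratio was below WT in Nat1-/- cultures for 48 of 92 members (52.2%), and for 45.1% of all genes. Since the rule requires a step in both assays, it favours genes whose ratio does not move, and no test was made of the members. Over all genes, limma with Benjamini-Hochberg adjustment called 75 of 12933 ratios different between Nat1-/- and Nat1+/-, and 6 (without Nat1-/- replicate 2) to 376 (without Nat1-/- replicate 3) with a culture left out.

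A few members stood off from 0. The ratio of Cyp2j13 was -1.16, -1.46 and -1.11 on the log2 scale in Nat1-/-, -0.30, -0.54 and -0.51 in Nat1+/-, and 0.35 and 0.08 in WT cultures. These values did not overlap between genotypes, but Cyp2j13 was picked as the member with the lowest difference between Nat1-/- and WT. Its Nat1-/- values rest on 11 RPF and 35 total RNA reads, which may be shared with near-identical genes. The ratio of Tmcc3 was -1.07, -0.09 and 1.34 in Nat1-/-, -0.91, -1.35 and -1.30 in Nat1+/-, and -1.46 and -0.94 in WT cultures, so that the Nat1-/- cultures spanned more than the difference of 1.26 from WT. Slfn5, Clvs2, Fermt1 and Fhl2 were lower than WT in Nat1-/- by 1.21, 1.19, 1.05 and 0.89, from few reads. The highest differences, 1.82 for Lrrk2, 1.72 for Prss23, 1.66 for Vrtn, 1.66 for Acta2 and 1.30 for Sema3c, all rest on 5 or fewer Nat1-/- total RNA reads.

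**Figure D5:**
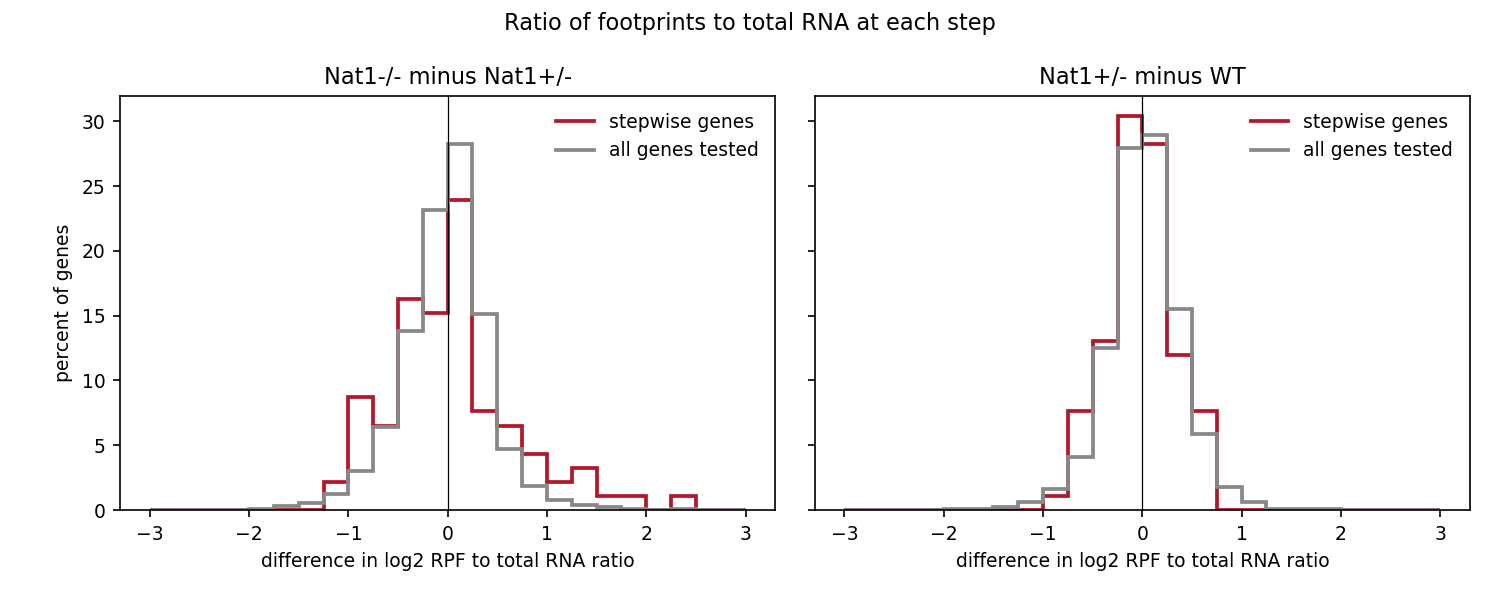
Histograms give the difference in log2 RPF to total RNA ratio, Nat1-/- minus Nat1+/- left and Nat1+/- minus WT right, as the share of genes per bin for the 92 genes and for all 12933 genes tested, with values beyond 3 drawn at 3. Both distributions centre near 0, with medians of 0.035 and 0.0131 left and of -0.0053 and 0.0216 right.

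The members were spread over 20 chromosomes, 11 of them on chromosome 2. In 7 pairs at most 5 genes of the table lay between the members: Nefl and Nefm, Cdh2 and Dsc2, Gbp3 and Gbp2, Wt1 and Pax6, Fndc3c1 and Lpar4, Cyp2j13 and Cyp2j6, and Atp10a and Magel2. TATAAA was in 19.4% of the 98 member promoter windows, against 6.35% of 9716 windows of genes with a WT mean of at least 100 and 13.6% of all windows. The AP-1 letters TGANTCA were in 10.2% of member windows, against 4.48% and 7.81%, and the TEAD letters GGAATG in 16.3%, against 11.6% and 14.7%. The GC box GGGCGG was in 62.2%, against 66.4% and 35.7%. The median observed to expected CpG ratio was 0.574 in member windows, 0.783 in those of genes with a WT mean of at least 100 and 0.384 in all windows. Both strands were searched, the same window may hold several motifs, and windows of 1 gene can overlap, so these shares are a description.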

How the data were processed

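Per the labels' protocols, an Illumina ribosome profiling kit gave an RPF and a total RNA library from each of 8 cultures. The authors deposited a signal: counts normalised by DESeq2, with 1 size factor per library, per the submitters' processing notes. Those notes name HTSeq 0.6.1, TopHat2 2.1.0, Bowtie2 2.2.8, cutadapt 1.9.1 and bcl2fastq 2.17, and the builds mm10 and GRCm38.p4. The sources used here do not say how strand, reads matching several places or footprint length were treated. Whole reads were recovered within 0.001 for 100% of values. Each assay is scaled to itself, which hides any shift common to most genes. Of the 21977 names, 27 looked like dates and 2 were repeated.

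The members and gene lists were chosen with earlier results of these data known, and roles and 4 lists were assigned after the members were seen. Members given in full follow a rule: the 10 with the lowest Nat1-/- share of WT, the 10 with the highest WT mean, up to 6 per list, the 3 on each side of the edge and the 5 extremes of the ratio at each end. The others are named to account for all 92, and those given in full among them were picked after their values were seen. Other genes are from the up to 4 per list with the smallest adjusted p in RPF for Nat1-/- against Nat1+/-. They were thus not picked for a step between Nat1+/- and WT. Lists not given above had these lower and higher limma calls for Nat1-/- against Nat1+/-, RPF then total RNA. TGF-beta and BMP had 9 and 10 of 40, then 7 and 14 of 39. YAP and TEAD had 8 and 4, then 4 and 7, of 23. Keratins and annexins had 7 and 7, then 10 and 5, of 29. Immediate early genes had 7 and 4 of 29, then 5 and 9 of 30. Actin dynamics had 17 and 8 of 46, then 14 and 9 of 48. Notch and Hedgehog had 13 and 3, then 10 and 6, of 27. WNT secretion had 4 and 2, then 4 and 5, of 15.

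Limma 3.58.1 (R 4.3.3, trend in eBayes) was fitted per assay on log2(value + 1) with 3 genotype means, leaving out genes whose mean was under 10. The ratio was fitted as an interaction over 16 libraries. A two-sided adjusted p (Benjamini-Hochberg) under 0.05 made a call. The steps share the Nat1+/- cultures. Changes of genes with low values are understated on this scale. No label says that WT replicates were grown apart, so p-values measure the spread between these cultures. The fit was tested on simulated data. Alternatives were edgeR 4.0.16 and DESeq2 1.42.0 on recovered reads, other filters, pseudocounts and scalings, a replicate block and leaving out each culture. RefSeq tables of GRCm38.p6, not the authors' build, gave names, gene order and promoters, and 92 of 92 members matched.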

Additional observations from a re-analysis of the deposited data

How the results depend on the processing

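The 92 genes became 167 with steps of 1.5-fold, 46 with steps of 3-fold and 51 with a WT mean of at least 200; 15 other settings stayed within 1.5 times, and leaving out each culture gave 78 to 117. The median ratio difference of the members, Nat1-/- minus Nat1+/-, was 0.035, -0.0189 with equal library sums, -0.025 over the 87 members with more than 3 Nat1-/- total RNA reads (added after seeing the data) and -0.0334 to 0.035 with a culture left out. Its sign thus differed between settings. Nat1+/- minus WT was -0.0053, 0.0622 with equal sums and -0.00945 to 0.0202 with a culture left out.

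Genes called for Nat1-/- against Nat1+/- numbered 4737 in RPF and 5519 in total RNA, and 2821 to 5464 and 3608 to 6261 with a culture left out. For Nat1+/- against WT they numbered 1374 in RPF and 1383 in total RNA; DESeq2 gave 2519 and 2559, the replicate block 162 and 190, and leaving out a culture 0 to 2634 and 0 to 2846, with limma calling 0 in both assays without WT replicate 1 (1787 RPF and 2006 total RNA genes had an unadjusted p under 0.05), and 23 and 0 without WT replicate 2 (2967 and 2959). Ratio calls numbered 75 for Nat1-/- against Nat1+/- (2037 with a term per culture, 6 to 376 with a culture left out) and 0 for Nat1+/- against WT by limma, with 663 genes at an unadjusted p under 0.05 (146 calls with a term per culture, 0 to 2 with a culture left out). The replicate numbers did not pair cultures: deviations of same-numbered cultures correlated at -0.191 to -0.0076. The block left 4507 and 5102 calls for Nat1-/- against Nat1+/-.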
